A study of Mus musculus with 8 samples.

Results

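The 2 genes described here encode the urea transporters of the mouse. Slc14a2 (ENSMUSG00000024552) encodes the UT-A proteins and Slc14a1 (ENSMUSG00000059336) encodes UT-B. They were chosen by gene symbol alone, 2 of 77981 genes in the table, and both were among the 19043 genes tested. RNA came from kidney samples labelled IMCD, the inner medullary collecting duct, in 8 libraries. 4 libraries had the genotype AVP-flox, with loxP sites in the first intron and downstream of the 3′ end of the vasopressin gene Avp, and served as control. The other 4, AVP-flox;Cre, carried a Cre recombinase in addition. Floxed Avp and tamoxifen treatment were common to all 8, and a group with Cre alone was not among them. The sources used here give neither the driver of Cre nor the age of the mice. Nothing in the labels ties each replicate to its own mouse. By Y-linked genes against Xist, AVP-flox 1 and AVP-flox;Cre 1 and 2 had a male pattern and the other libraries did not. The libraries of a group thus did not all come from the same mouse, and sex was not balanced between the groups. How many mice there were is not given, so the p-values may measure technical spread in part.

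Urea is the main waste product of protein breakdown, and the kidney traps it in the inner medulla to help concentrate urine. UT-A1 and UT-A3 let urea leave the end of the collecting duct, where vasopressin raises their activity through its V2 receptor, cAMP and phosphorylation. UT-A2, from the same gene, lies in the thin descending limb of the loop of Henle. UT-B lies in the descending vasa recta, the vessels that carry blood into the medulla, in red blood cells and in the urothelium, and takes part in countercurrent exchange of urea.

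Values are TPM (transcript abundance scaled to gene length and to a fixed library total), so levels can be set side by side between genes. TPM keeps no record of read numbers, and the depth of each library is unknown. Avp, the floxed gene, is made in the hypothalamus and was listed at no more than 0.24 TPM in any control and 0.27 TPM in any AVP-flox;Cre library, so it does not check the labels here. The defining genes of the collecting duct were present, with Aqp2 between 5443 and 18131 TPM, but so were those of endothelium, of thin limbs and of the thick ascending limb. The samples thus hold RNA of several cell types. AVP-flox;Cre 2 and 4 stood apart from the other libraries, at 57.56 and -42.60 on the second principal component against -17.01 to 11.96. They also differed in the number of genes listed above 0 TPM. AVP-flox;Cre 2 had the fewest, 33576 against 50951 or more in every other library, and AVP-flox;Cre 4 had the most, 58232. Whether depth or RNA quality differed was not tested.

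Slc14a2 was one of the most abundant transcripts of the tissue. It ranked between 68 and 104 among all genes in the controls and between 43 and 61 in AVP-flox;Cre. By mean level it was number 2 among genes whose symbol starts with Slc (280 of them tested) among controls and number 1 with Cre. Slc14a1 was lower by roughly an order of magnitude, at ranks from 1425 to 2038. It was number 25 of the solute carrier genes in controls and number 22 with Cre. UT-A therefore made up 87.8% to 92.1% of the summed TPM of both genes in every library.

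Slc14a2 was higher in AVP-flox;Cre. It stood at 1054, 1068, 848 and 1081 TPM in AVP-flox 1 to 4 and at 1403, 1282, 1447 and 1370 TPM in AVP-flox;Cre 1 to 4. The lowest AVP-flox;Cre library was above the highest AVP-flox library, and AVP-flox 3 was the lowest of all. The means were 1013 ± 110 and 1376 ± 69.7 TPM (SD, n = 4 per group), a 1.36-fold rise. In limma the log2 fold change on the log2(TPM + 1) scale was 0.45 (SE 0.09, 95% interval 0.25 to 0.64, adjusted p = 0.00438). An exact two-sided permutation of the libraries returned p = 0.0286, which is the lowest value possible for 4 against 4, and 0.0857 after adjustment over the 3 exact tests made. Of all genes tested, 27.3% passed in limma in either direction, 13.1% as higher and 14.2% as lower in AVP-flox;Cre. Groups did not overlap for 29.5% of genes, 14.7% with AVP-flox;Cre higher and 14.9% with it lower. The rise of Slc14a2 was thus 1 of many.

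Slc14a1 did not pass the test. Its levels were 102, 122, 118 and 125 TPM in AVP-flox 1 to 4 and 127, 137, 129 and 117 TPM in AVP-flox;Cre 1 to 4. The groups overlapped, since AVP-flox;Cre 4 lay below 3 of the AVP-flox libraries. The means were 117 ± 10.4 and 127 ± 8.34 TPM, a ratio of 1.09. The log2 fold change was 0.13 (SE 0.08, adjusted p = 0.292 in limma), with p = 0.171 by exact permutation. The 95% interval of the log2 fold change, -0.06 to 0.31, spans ratios from 0.961 to 1.24. A fall to a ratio under 0.961 or a rise to one over 1.24 lies outside the interval, and the ratios between do not.

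**Figure D1:**
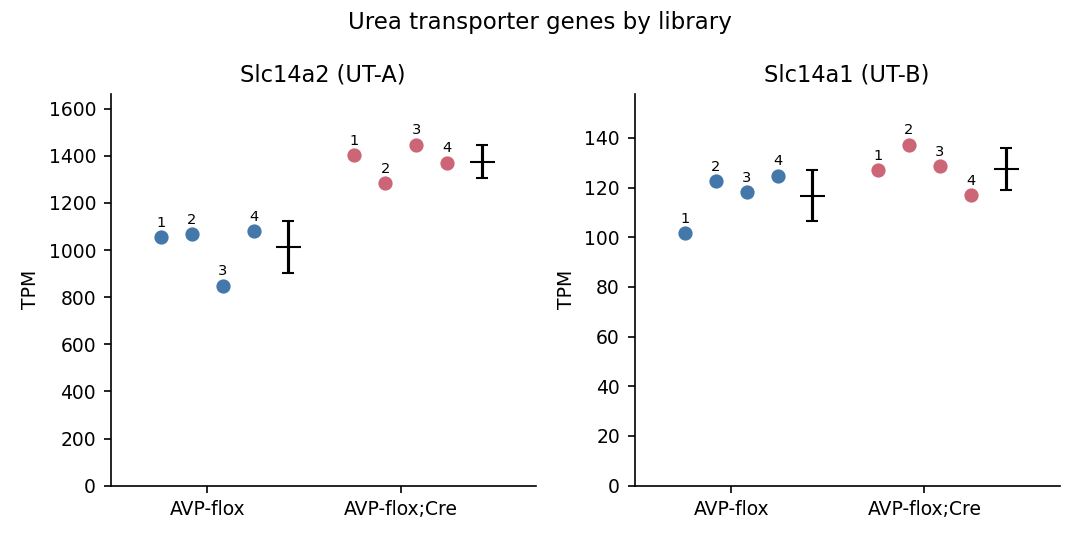
TPM of Slc14a2 (left) and Slc14a1 (right) in each library, with axes from 0. Points are single libraries with their replicate number, and the black bars give the mean and SD of 4 libraries. All AVP-flox;Cre points of Slc14a2 (1282 to 1447 TPM) lie above all AVP-flox points (848 to 1081 TPM), while those of Slc14a1 overlap.

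Whether both genes responded differently was tested on their ratio within each library. Slc14a2 exceeded Slc14a1 by 10.4, 8.72, 7.17 and 8.66 times in AVP-flox 1 to 4 and by 11.1, 9.34, 11.3 and 11.7 times in AVP-flox;Cre 1 to 4. The groups overlapped, with AVP-flox 1 above AVP-flox;Cre 2. The mean log2 ratio was 3.10 ± 0.22 for controls against 3.42 ± 0.14 with Cre (SD, n = 4). The difference of 0.32 was not past the threshold in the exact permutation test (two-sided p = 0.0571, 0.0857 after adjustment over 3 tests). A different response of UT-A and UT-B was therefore not shown, although in limma Slc14a2 passed and Slc14a1 did not. The exact test is the coarser of the 2 tests. In it Slc14a2 alone was also at 0.0857 after adjustment, from the lowest p possible for 4 against 4 (0.0286).

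The water channel gene Aqp2, which vasopressin also regulates in this segment, moved the opposite way (log2 fold change -1.35, adjusted p = 3.38e-05 in limma). The ratio itself was not tested. There were 14.4, 14.8, 17.6 and 16.8 Aqp2 TPM for each Slc14a2 TPM in AVP-flox 1 to 4, and 5.02, 4.61, 4.72 and 3.97 in AVP-flox;Cre 1 to 4. The lowest AVP-flox ratio was well above the highest AVP-flox;Cre ratio.

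**Figure D2:**
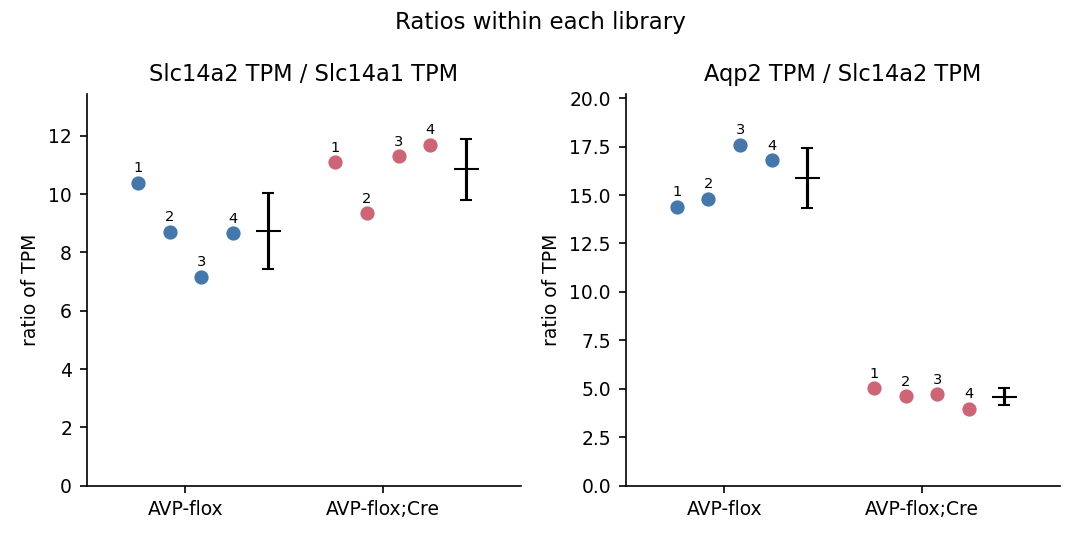
Ratios of TPM within each library, Slc14a2 to Slc14a1 (left) and Aqp2 to Slc14a2 (right), with axes from 0. Points are single libraries with their replicate number, and bars give mean and SD. The left groups overlap (7.17 to 10.4 and 9.34 to 11.7), the right groups do not (14.4 to 17.6 and 3.97 to 5.02).

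The Slc14a2 value is the total over several proteins. In GENCODE M21 (the authors' release may differ) Slc14a2 has 6 transcripts, 5 of them coding. The longest coding sequence, 2790 nt, is that of UT-A1. A coding sequence of 1383 nt is that of UT-A3 and one of 1191 nt that of UT-A2, and 99.6% and 100% of their bases also lie in the coding exons of UT-A1. UT-A3 corresponds to the first part of UT-A1, and UT-A2 to the last part with a start of its own. Slc14a1 has 3 transcripts there, with coding sequences of 1152 or 1320 nt. Gene totals cannot say which UT-A form rose, nor whether the RNA came from collecting duct or thin limb.

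Transcripts annotated inside Slc14a2 or described as antisense to it were higher in AVP-flox;Cre as well. The table lists 7 entries that lie within a urea transporter gene or are described as antisense or intronic to one, and these were looked up after the values of both genes were seen. 4 of them reached the level for testing, all at Slc14a2, and 3 rose. Of all genes tested, 13.1% were called higher, and for 14.7% every AVP-flox;Cre library was above every AVP-flox library. The antisense transcript ENSMUSG00000132614 was at 19.2, 19.3, 14.7 and 11.2 TPM in AVP-flox 1 to 4 and at 32.1, 26.3, 30.6 and 34.6 TPM in AVP-flox;Cre 1 to 4 (log2 fold change 0.92, SE 0.17, adjusted p = 0.00314 in limma). Every AVP-flox;Cre library was above every AVP-flox library. The antisense transcript 4931439C15Rik went from 11.5 to 13.6 TPM in AVP-flox to 18.8 to 30.2 TPM in AVP-flox;Cre (0.77, SE 0.15, adjusted p = 0.00457). Gm6133, a predicted gene on the opposite strand inside Slc14a2, went from 7.50 to 10.4 TPM to 11.5 to 17.5 TPM (0.76, SE 0.16, adjusted p = 0.00679), but its call ended without AVP-flox;Cre 2 and 4 (0.61, adjusted p = 0.0756). The sense intronic transcript ENSMUSG00000132656, at 0.77 to 3.24 TPM, did not pass (0.63, adjusted p = 0.0849). The 2 entries antisense to Slc14a1 stayed at or under 0.44 TPM and were not tested. The cDNA kit named in the labels does not mark strand, so reads of Slc14a2 and of transcripts that overlap it cannot be told apart. The 3 rises may therefore not be separate from that of Slc14a2.

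Slc14a1 and Slc14a2 lie side by side on the same strand, and the 5 nearest protein-coding genes on each side were taken from the order in RefSeq (GRCm38.p6). Of these 10, 8 were tested, 0 rose in limma, 3 fell and 5 did not pass. At an unadjusted p under 0.05, 0 were higher and 4 lower. With 13.1% of all genes tested called higher and 14.2% lower, counts among 8 genes show nothing particular to the neighbours. Siglec15, next to Slc14a1, was listed at 0 to 0.18 TPM. Setbp1, next to Slc14a2, was at 3.01 to 5.56 TPM in controls and 3.91 to 5.64 TPM in AVP-flox;Cre (0.10, adjusted p = 0.732 in limma). The nearest gene that changed was Atp5f1a, a subunit of ATP synthase (-0.30, adjusted p = 0.0230), with Haus1, of the mitotic spindle, beyond it (-0.47, adjusted p = 0.00680). Rbfa, on the other side, fell by 0.33 (adjusted p = 0.0313). The calls of Atp5f1a and Rbfa each ended in 10 of 23 alternatives, among them without AVP-flox;Cre 2 and 4 (adjusted p = 0.0705 and 0.0751).

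**Figure D3:**
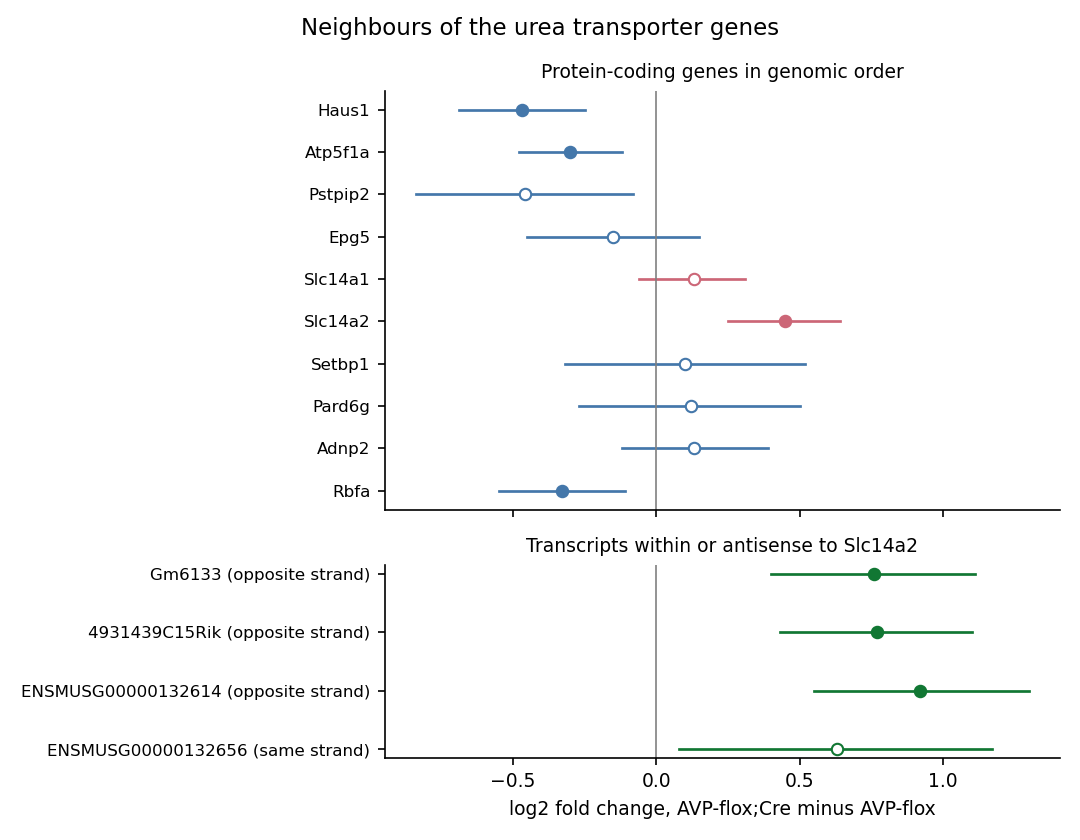
Log2 fold changes with 95% intervals of the tested protein-coding genes around the urea transporter genes, in genomic order (top), and of tested transcripts within or antisense to Slc14a2 (bottom). Filled points passed the test and open points did not, and both urea transporter genes are in red. Slc14a2 (0.45) and 3 transcripts of the opposite strand, inside or described as antisense to it (0.76 to 0.92), are higher. Among the 8 neighbours 3 passed as lower and 0 as higher, where 13.1% of all genes tested passed as higher.

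The markers of cells known to carry urea transporters gave mixed results. Their counts are to be read against all genes tested, of which 13.1% were called higher and 14.2% lower. In bulk RNA, fewer cells of a type and less RNA per cell cannot be told apart. Of the thin limb list, 4 of 5 tested markers rose, and the median log2 fold change was 0.53 against -0.01 over all genes tested. Its summed level was 1771 to 2196 TPM in controls and 2537 to 2715 TPM in AVP-flox;Cre. Bst1 rose from 64.8 ± 13.3 to 118 ± 7.92 TPM. Epha7 rose by 0.74 on the log2 scale. Cldn10, a claudin, rose 1.20-fold, but that call ended in 12 of 23 alternatives (highest adjusted p = 0.243). Aqp1, the water channel of the descending limb and of the descending vasa recta, averaged 549 ± 62.9 and 622 ± 43.8 TPM, a difference not past the threshold (0.19, adjusted p = 0.169 in limma). Fst was at 0.03 to 1.65 TPM and not tested. Of the 8 collecting duct markers 0 rose in limma (1 was higher at an unadjusted p under 0.05) and 4 fell, Aqp2 and Aqp4 among them, and the median was -0.25. Without AVP-flox;Cre 2 and 4, 2 of the 8 fell. The list sum was 18750 to 22720 TPM in controls and 9167 to 11190 TPM with Cre, and most of this was Aqp2. Without Aqp2, left out after the values were seen, the sums overlapped, at 3578 to 4768 TPM and 3724 to 4588 TPM. In these sums the falls of Aqp3 and Aqp4 were offset by Fxyd4, the most abundant of the rest. Fxyd4 averaged 1844 ± 362 and 2427 ± 321 TPM (0.41, adjusted p = 0.0623 in limma). The part of either cell type in the rise of Slc14a2 was not tested.

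Around Slc14a1, the endothelial markers were split. Of 9, 4 rose and 2 fell, where 13.1% of all genes tested were called higher and 14.2% lower, and the median was 0.22. Tie1 and Tek, which encode the TIE receptors, rose 2.09-fold and 1.56-fold, and Kdr, a VEGF receptor, rose 1.59-fold. Emcn, a sialomucin of capillaries and veins, fell from 705 ± 44.4 to 362 ± 27.1 TPM (-0.96, adjusted p = 3.38e-05 in limma), and Pecam1 fell 1.33-fold. Plvap, of fenestrated endothelium, averaged 1308 ± 21.8 and 1237 ± 28.5 TPM (-0.08, adjusted p = 0.287). The list summed to 2772 to 2869 TPM in controls and to 2472 to 2569 TPM in AVP-flox;Cre. That difference was the fall of Emcn, without which (left out after the values were seen) the sums were 2011 to 2174 TPM and 2133 to 2220 TPM and overlapped. Red cell markers were uneven within both groups, at 238.0 to 716.1 TPM in controls and 122.9 to 553.4 TPM with Cre, and 0 of 5 tested passed in limma, at adjusted p from 0.271 to 0.722 (unadjusted p from 0.140 to 0.587). Epb42, of the red cell membrane, reached at most 1.14 TPM and was not tested. Of 8 tested urothelial and papillary surface markers 6 rose and 1 fell, led by Upk3a (5.44-fold), and the list sum, mostly Psca, went from 1797 to 2821 TPM to 5013 to 5763 TPM. Without Psca it was 130.0 to 236.9 TPM and 534.0 to 678.5 TPM. Slc14a1 stayed within 102 to 137 TPM across these libraries, and the part of each cell type in its level was not tested.

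Markers of some other cell types moved with the groups as well. Their counts, too, are to be read against 13.1% of all genes tested called higher and 14.2% called lower. The 4 thick ascending limb markers summed to 2271, 358, 1890 and 1958 TPM in AVP-flox 1 to 4 and to 553.5 to 810.7 TPM in AVP-flox;Cre. AVP-flox 2 lay below every AVP-flox;Cre library, and the other 3 controls lay above them all. Of these markers 1 rose and 0 fell in limma, with 2 lower at an unadjusted p under 0.05, and 3 fell without AVP-flox 2, among them Umod, which encodes uromodulin (-1.42, adjusted p = 0.000146, against -0.75 and 0.343 with that library). Without AVP-flox 2 the rise of Slc14a2 was 0.47 (adjusted p = 0.00645). Proximal tubule markers were uneven among controls, with sums of 37.69 to 616.7 TPM against 79.51 to 230.9 TPM with Cre. Of the 5 tested, 0 rose and 0 fell in limma, also at an unadjusted p under 0.05. Intercalated cell markers summed to 92.08 to 143.5 TPM in controls and 159.9 to 206.8 TPM with Cre, and 2 of 5 rose (4 at an unadjusted p under 0.05). Fibroblast and pericyte markers summed to 118.8 to 162.2 TPM and 243.5 to 303.6 TPM, and 2 of 7 rose (3 at an unadjusted p under 0.05). Leukocyte markers summed to 28.89 to 36.81 TPM and 45.67 to 63.11 TPM, and 1 of 4 rose (2 at an unadjusted p under 0.05). The sums of these last 3 lists did not overlap between the groups, and their part in the levels of Slc14a1 and Slc14a2 was not tested.

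**Figure D4:**
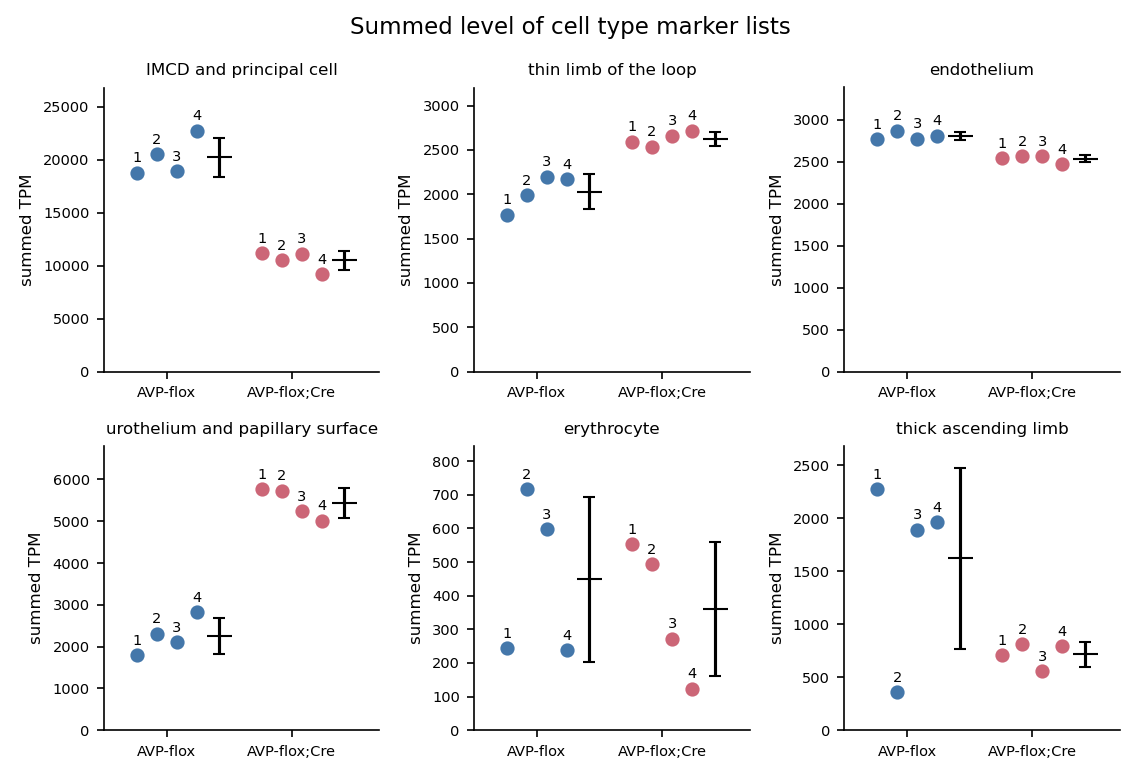
Summed TPM of 6 marker lists in each library, with axes from 0. Points are single libraries with their replicate number, and bars give mean and SD of 4 libraries. Thin limb (1771 to 2196 against 2537 to 2715) and urothelial sums are higher in AVP-flox;Cre, collecting duct and endothelial sums are lower (through Aqp2 and Emcn, without which they overlap), and red cell and thick ascending limb sums overlap.

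Other genes of urea transport were read from 5 lists of 38 genes. Of the 32 tested, 7 rose, 3 fell and 22 did not pass, so 31.2% were called against 27.3% of all genes tested, and their median log2 fold change was -0.09. As a group they were therefore close to the background. Without AVP-flox;Cre 2 and 4, 5 rose and 2 fell.

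Among channels, Aqp3, an aquaglyceroporin of the basolateral membrane that passes glycerol and urea besides water, fell. It was at 598, 746, 774 and 880 TPM in AVP-flox 1 to 4 and at 520, 432, 531 and 440 TPM in AVP-flox;Cre 1 to 4, and the groups did not overlap (-0.63, adjusted p = 0.00387 in limma). Without AVP-flox;Cre 2 and 4 the fall was -0.50 and not past the threshold (adjusted p = 0.0503). Aqp7 and Aqp9, of the same class, were under 1.6 TPM in every library.

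In the signalling list, from the vasopressin receptor to the kinases that act on UT-A1, 1 of 12 genes rose, 0 fell and 11 did not pass in limma. At an unadjusted p under 0.05, 3 were lower. Avpr2, the V2 receptor, ranged from 396 to 535 TPM among controls and from 438 to 566 TPM with Cre (0.08, adjusted p = 0.657). Adcy6, an adenylyl cyclase that makes cAMP there, stood at 52.4 ± 1.85 and 48.3 ± 4.13 TPM. Prkacb, a catalytic subunit of protein kinase A, rose 1.29-fold (adjusted p = 0.0129), a call that ended without AVP-flox;Cre 2 and 4 (0.28, adjusted p = 0.101). The other catalytic subunit gene, Prkaca, was at 60.6 to 73.9 TPM in controls and at 70.5, 15.3, 35.1 and 8.87 TPM in AVP-flox;Cre 1 to 4. AVP-flox;Cre 1 lay within the control range and the other 3 below it. The difference was not past the threshold (-1.45, adjusted p = 0.0548) and passed without AVP-flox;Cre 1 (-1.95, adjusted p = 0.00441) and with a filter at 5 TPM (0.0394). Without AVP-flox;Cre 2 and 4, Prkaca was at -0.45 (adjusted p = 0.238). Gnas, which encodes the stimulatory G protein, had the same order of libraries, at 680, 345, 455 and 215 TPM in AVP-flox;Cre 1 to 4 against 635 to 710 TPM (-0.81, adjusted p = 0.0557, and 0.00606 without AVP-flox;Cre 1), and passed in 6 of 23 alternatives. Without AVP-flox;Cre 2 and 4, Gnas was at -0.29 (adjusted p = 0.217). Rapgef3, the cAMP sensor Epac1, and Prkca, protein kinase C alpha, did not pass (-0.15 and -0.39, adjusted p = 0.230 and 0.0693).

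2 of 7 genes that bind, move or modify UT-A1 rose, 0 fell in limma (1 was lower at an unadjusted p under 0.05) and 5 did not pass. St6gal1, a sialyltransferase that adds sialic acid to UT-A1, was at 13.5, 12.5, 13.5 and 12.9 TPM in AVP-flox 1 to 4 and at 23.8, 25.9, 25.2 and 23.4 TPM in AVP-flox;Cre 1 to 4. The rise of 1.88-fold was far larger than the spread within either group (log2 fold change 0.86, SE 0.08, adjusted p = 0.000116 in limma). Snapin, a SNARE-associated partner of UT-A1, rose from 130 ± 3.69 to 173 ± 14.3 TPM (0.41, adjusted p = 0.00265). Both calls held in all 23 alternatives. Ywhag, the gene of 14-3-3 gamma, and Cav1, caveolin-1, did not pass (-0.22 and -0.17, adjusted p = 0.0557 and 0.212).

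Enzymes that make urea were mostly listed near 0 or did not pass. Of the 8 genes of the urea cycle and of arginine breakdown, 4 were tested, of which 1 rose and 3 did not pass. At an unadjusted p under 0.05 in limma, 2 were higher. Arg1, also an arginase, was at 0.22 to 1.25 TPM in controls and 0.80 to 4.27 TPM with Cre (0.96, adjusted p = 0.0693). Arg2, the mitochondrial arginase, which splits arginine into urea and ornithine, rose from 17.6 ± 1.64 to 26.5 ± 1.82 TPM, and its groups did not overlap (0.57, adjusted p = 0.00210). Asl, argininosuccinate lyase, was at 52.5 ± 5.76 and 56.0 ± 2.75 TPM. Cps1, Otc and Nags, the mitochondrial enzymes that start the cycle, were under 0.28 TPM in every library.

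Genes of the tonicity response, through which medullary cells balance the salt and urea around them, changed in both directions. Of 8, 3 were higher, 2 lower and 3 not past. At an unadjusted p under 0.05 in limma, 3 were higher and 3 lower. Nfat5, the transcription factor of this response, rose from 82.9 ± 16.2 to 144 ± 26.3 TPM. Slc6a6, the taurine transporter, rose 1.31-fold. Slc38a2, an amino acid transporter, rose 2.34-fold, but its call ended in 7 of 23 alternatives. Among these were fits without AVP-flox 2, AVP-flox 3 or AVP-flox;Cre 2 (adjusted p = 0.0526 to 0.0565). Without AVP-flox;Cre 2 and 4 the log2 fold change of Slc38a2 was 1.12 (adjusted p = 0.132 in limma). It was 0.92 (adjusted p = 0.22) without AVP-flox 2 as well. Slc5a3, which takes up myo-inositol, fell from 165 ± 29.6 to 94.9 ± 15.3 TPM, and Akr1b1, aldose reductase, which makes sorbitol, fell from 4296 ± 360 to 3080 ± 532 TPM. Slc6a12, the betaine transporter, did not pass (-0.31, adjusted p = 0.0927). The call of Akr1b1 ended with median-of-ratios scaling (adjusted p = 0.0972).

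**Figure D5:**
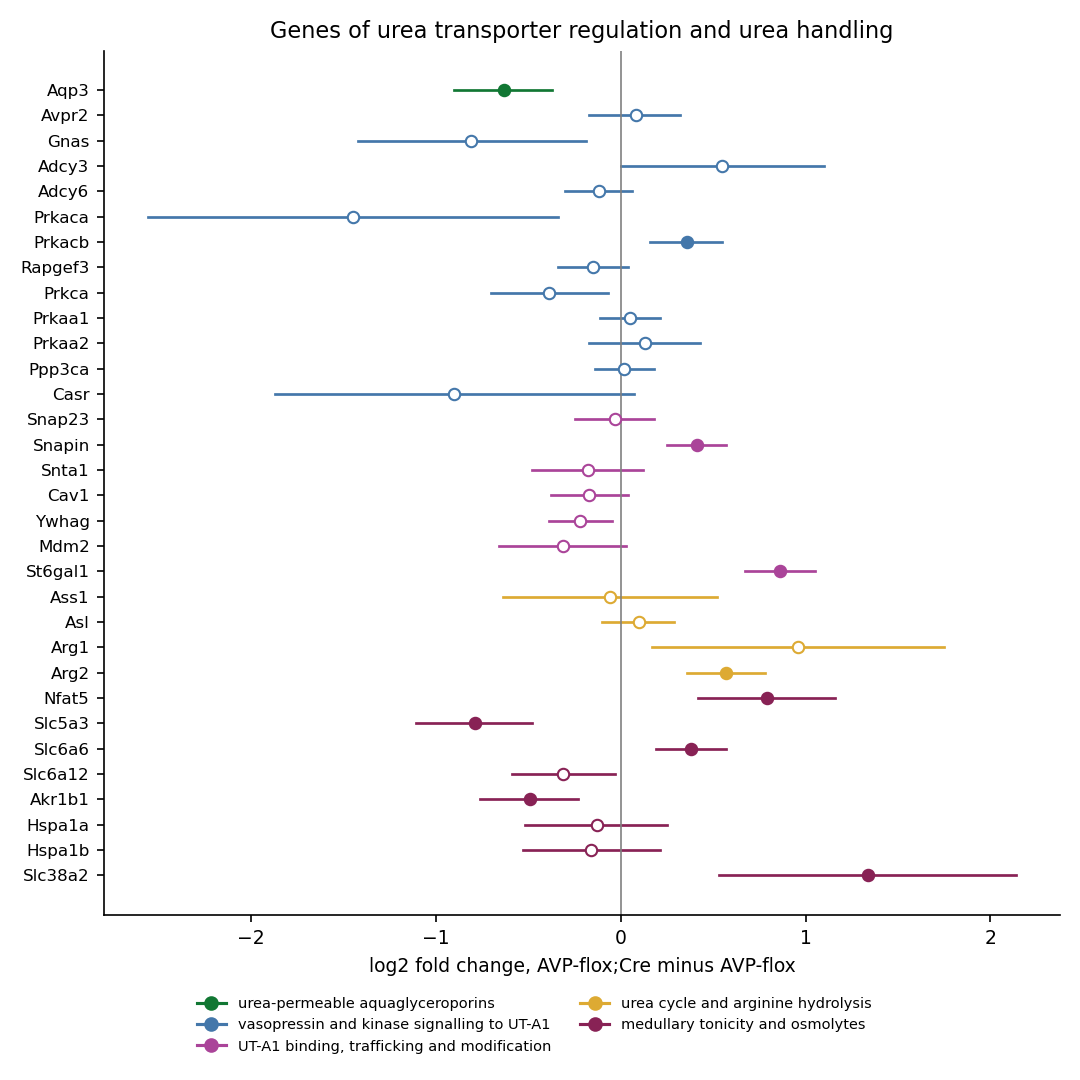
Log2 fold changes with 95% intervals of the 32 tested genes of urea transporter regulation and urea handling, coloured by list. Filled points passed the test (7 higher, 3 lower) and open points did not.

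Within the groups, no shared variation of both urea transporter genes was shown, and 8 libraries are too few to exclude it. The coefficient of variation of Slc14a2 was 10.9% among controls and 5.07% with Cre, and that of Slc14a1 was 8.93% and 6.55%. The Pearson r of their deviations from the group means was -0.128 over the 8 libraries, which share 2 group means. By the same measure over 9759 genes of at least 10 TPM, the pattern most like that of Slc14a1 was that of Cldn19, a claudin (r = 0.995, at 98.8 to 150.5 TPM in controls and 141.3 to 195.5 TPM with Cre), followed by Snhg18 (0.992), Lypd2 (0.977), Epm2aip1 (0.973) and 1700037C18Rik (0.972). For Slc14a2 the 5 closest included Tnfaip1 (0.979), Dclre1b (0.955), Tollip (0.933) and Arhgef16 (0.932). These are descriptions of 8 libraries. Without 1 library, 2 to 4 of the 5 genes remained among the 5 closest to Slc14a1, and 0 to 4 of those closest to Slc14a2, with 0 of 5 when AVP-flox 3 was left out.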

How the data were processed

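The authors deposited TPM values per Ensembl mouse gene, 1 column per library. Per the submitters' processing notes the tools were STAR and RSEM. Their versions, the build and the annotation were not given in the sources used here, and gene positions are left out. Per the labels, SMART-Seq HT made the cDNA and Nextera XT the libraries. The WT columns were taken for AVP-flox and the KO columns for AVP-flox;Cre, each by its number.

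The 78298 identifiers were summed by symbol to 77981 genes. Akr1b1 was matched through its identifier. R 4.3.3 with limma 3.58.1 compared log2(TPM + 1) with a mean-variance trend for 19043 genes (mean over all libraries 1 TPM or more), and two-sided p-values were adjusted over these genes by Benjamini-Hochberg (threshold 0.05). Exact permutation tests used scipy 1.17.1. The fit was also run on 5 simulated sets of 19043 genes, of which few were changed. Over all runs, 38.6% of 337 genes were recovered at a simulated log2 change of 0.5 and 83.4% of 319 at 1, with 94215 left unchanged. In the data 27.3% of genes were called, and the adjustment depends on that share. The simulated shares are therefore not the sensitivity of this comparison.

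The genes, lists and tests were chosen with earlier results of these data known. Named genes are both members, list genes, 10 neighbours and the 5 genes most like each member, of which some are not reported here. Alternatives were a replicate block, pseudocounts, filters, scalings, limma settings, sample weights, unsummed identifiers, sex pattern (Xist against Y-linked genes) as a covariate, and libraries left out.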

Additional observations from a re-analysis of the deposited data

Results flagged for a closer look

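Slc14a2 in AVP-flox 3, at 848.38 TPM, lay far from the other 3 AVP-flox libraries (1054 to 1081 TPM). Without that library the rise of Slc14a2 was 0.36 (adjusted p = 0.00676 in limma) against 0.45 with it. Tnfaip1 was far below the rest there too (56.76 TPM), but it was named for following Slc14a2 across these libraries, so this is no separate observation. In AVP-flox 1, Slc6a6 (35.59 TPM) and Aqp1 (455.02 TPM) were far below the rest of their group, and in AVP-flox 2 Akr1b1 (4833.99 TPM) was far above it. In AVP-flox;Cre, Slc38a2 in replicate 2 (274.6 TPM) was far above the other libraries, and Gm6133 in replicate 1 (11.45 TPM) was far below them. In all, 104 groups of 4 values were examined and 7 held such a library. Chance alone flags about 1 in 20 groups.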

How the results depend on the processing

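Slc14a2 stayed higher and past the threshold in all 23 alternatives of the limma fit (log2 fold change 0.36 to 0.53, adjusted p 0.00231 to 0.0422), and Slc14a1 stayed not past it (0.06 to 0.17, adjusted p 0.192 to 0.661). Without AVP-flox;Cre 2 and 4 the values were 0.50 and 0.13. The difference of their log2 ratio ran from 0.23 to 0.41 and did not pass in any of 11 alternatives, of which leaving out 1 library cannot go below an exact p of 0.0571. The number of changed genes was 5204, against 3409 with no filter, 3086 without AVP-flox;Cre 2 and 4 and 2560 without AVP-flox 2 as well. Without AVP-flox replicate 3, Avpr2 and Setbp1 were both at -0.01 (without any 1 library -0.01 to 0.14 and -0.01 to 0.22). By Spearman rho, 1 of the 5 genes closest to Slc14a1 and 1 of those closest to Slc14a2 remained, and without 1 library 2 to 4 and 0 to 4. Of 50 other genes examined one by one, 32 were called, and 24 of these calls held in every alternative that could be fitted. Of the 18 not called, 11 passed in at least 1. The labels do not say whether same-numbered libraries were paired, and their deviations correlated at 0.001 to 0.095. With the replicate block the log2 fold changes were again 0.45 for Slc14a2 (adjusted p = 0.0167) and 0.13 for Slc14a1 (0.328), and the ratio differed by 0.32 (exact p = 0.125, the smallest 4 pairs allow). Read depth could not be examined.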
